A study of Mus musculus with 15 samples.

Results

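The cadherins and the non-clustered protocadherins of the whole mouse pituitary gland were followed across 15 RNA-seq libraries. Members were all genes whose symbol was Cdh or Pcdh followed by a number, with or without a final x, except Cdh5, the cadherin of blood vessel endothelium. This gave 34 genes of 55523 in the count table, 22 cadherins and 12 protocadherins. By the usual classes they were 5 type I and 12 type II classical cadherins, 5 other cadherins, 4 delta-1, 5 delta-2 and 3 other protocadherins. The mice carried a germline deletion, made by CRISPR/Cas9, of the pituitary enhancer (PE) that lies in an intron of Nr5a1, which encodes a nuclear receptor that gonadotropes, the cells that make gonadotropins, express. The 4 groups were PE+/- males (4 libraries), PE-/- males (4), PE+/- females (4) and PE-/- females (3). The controls were thus PE+/- mice, which lacked the enhancer on 1 chromosome, and mice with both copies intact were not analysed here. PE-/- mice lacked it on both chromosomes in every cell, so gonads and other tissues carried the deletion as well. Age, oestrous stage and whether the libraries of a group came from separate animals were not given in the labels, so that p-values measure only the spread between these libraries, which may be technical.

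Cadherins are membrane proteins whose extracellular repeats bind calcium and hold cells together, mostly by binding the same cadherin on the neighbouring cell. Classical cadherins grip the actin cytoskeleton through beta-, alpha- and p120-catenin. Delta protocadherins bind more weakly, lack the catenin binding site and are best known for sorting neurons and guiding their axons. In the anterior pituitary, E-cadherin marks the epithelial stem cell compartment and N-cadherin joins hormone cells into homotypic networks.

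Nr5a1 itself followed the labels, at 34.8 to 80.1 CPM (counts relative to the TMM-scaled library total) in PE+/- males and 33.7 to 45.4 CPM in PE+/- females, against 0 to 0.739 CPM in PE-/- males and 0.617 to 0.896 CPM in PE-/- females. Gh, the growth hormone gene that defines the pituitary somatotropes, was at 59272 CPM or more in every library. Library totals ran from 12982794 to 30238443 estimated counts. Among 13 lists of cell type markers, the summed levels of the gonadotrope, somatotrope and mesenchymal lists were lower without overlap in PE-/- males than in PE+/- males, and those of the gonadotrope, lactotrope and mesenchymal lists were lower in PE-/- than in PE+/- females. None was higher without overlap in either sex. The sums of the gonadotrope and somatotrope lists were lower in PE+/- females than in PE+/- males, and no list separated the sexes in PE-/-. In bulk tissue, fewer cells of a type and less RNA per cell cannot be told apart. Some libraries stood apart within their group. The corticotrope sum ran from 4728 to 115040 CPM in PE-/- males, and the endothelial sum from 90.9 to 369 CPM in PE+/- males. Replicates 2 and 4 of the PE+/- males and 3 and 4 of the PE-/- males carried posterior lobe transcripts, as described under Cdh19, and replicate 3 of the PE+/- females had 61.1 CPM of Snai2, which encodes a repressor of E-cadherin, where the other 14 libraries had 11.5 CPM or less.

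The family was broadly expressed at low to moderate levels. To allow for gene length, levels were also given as CPM per kilobase of merged annotated exons. These lengths include exons that the pituitary may not use, so the order of genes is approximate. The mean over the 15 libraries was highest for Cdh26 (6.51), followed by Pcdh20 (6.31), Cdh2 (5.40), Pcdh9 (4.07), Pcdh17 (4.03), Cdh1 (3.91), Pcdh18 (2.48) and Pcdh11x (2.46). These 8 genes made up 66.6% of the summed level per kilobase of the 34. Pcdh11x owed its place to 1 group, since it was at 4.41 to 6.54 CPM per kilobase in PE+/- females and at 0.712 to 1.88 in the other 11 libraries. Neighbours in this order overlapped widely, since single libraries ran from 3.64 to 11.3 CPM per kilobase for Cdh26 and from 3.23 to 10.8 for Pcdh20. Of all members, 22 were above 12 counts, taken here as the floor because it corresponds to about 3 sequenced fragments, in every library. Cdh3, Cdh17 and Cdh24 stayed at or under the floor in all 15 libraries, and Cdh16, known from kidney and thyroid, was listed at 0 in all, which allows up to 12 counts a library. Cdh23, which with Pcdh15 forms the tip links of hair cells, was above the floor in 1 library. These 5 genes were never tested because of their low counts, 29 members were tested in at least 1 comparison, and 25 in all of them.

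**Figure D1:**
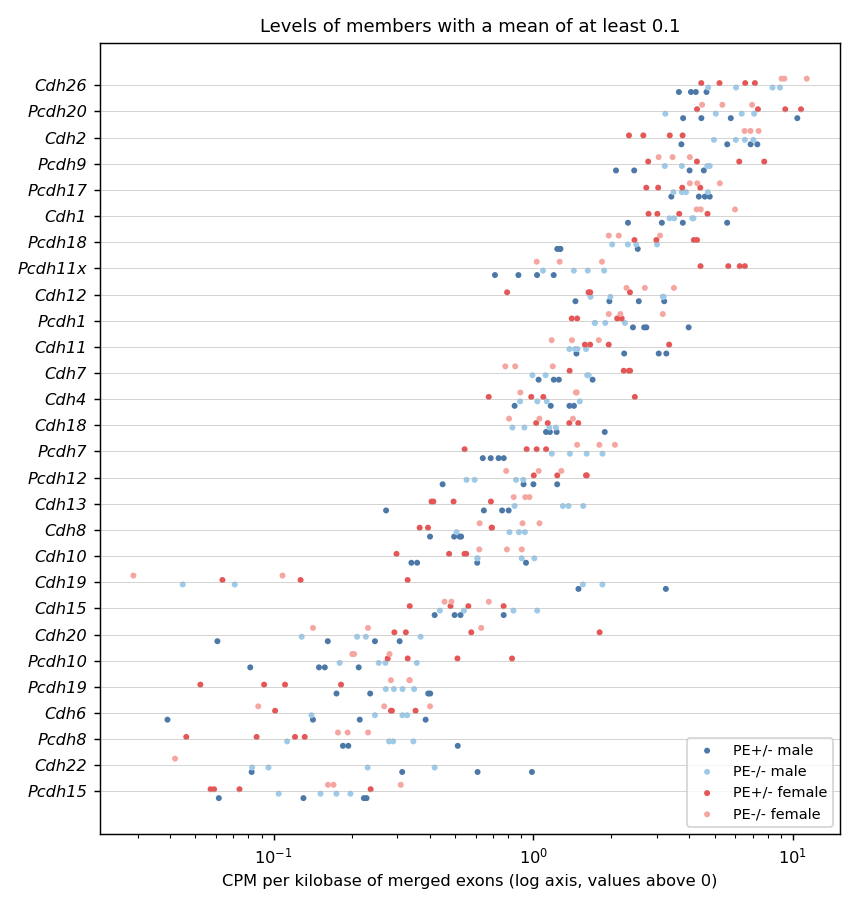
Levels of the members with a mean of at least 0.1 CPM per kilobase of merged exons, on a log axis, with 1 point per library coloured by group and libraries at 0 left out. Genes run from Cdh26 at the top (mean 6.51 CPM per kilobase) down to Pcdh15 (0.156), and the PE+/- female points of Pcdh11x lie apart from those of the other 3 groups.

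Few members passed the threshold, set at 0.05 for the p of edgeR's quasi-likelihood test after Benjamini-Hochberg adjustment over all genes tested. In males, 0 of 28 tested members passed in PE-/- against PE+/- (all genes: 0.132%). At an unadjusted p under 0.05 there were 9 members (all genes: 6.14%), and DESeq2 called 1, Pcdh7 (all genes: 228 calls). In females 2 of 26 passed (all genes: 1.05%), Cdh2 as higher and Pcdh11x as lower, and 9 had an unadjusted p under 0.05 (all genes: 16.1%). Between the sexes, 1 of 25 members passed in PE+/- (all genes: 0.67%), Pcdh11x, which was higher in females, and 9 had an unadjusted p under 0.05 (all genes: 13.5%). In PE-/-, edgeR called 0 of 27 between the sexes (all genes: 0.0494%), with 1 at an unadjusted p under 0.05 (all genes: 3.37%). DESeq2 called 0 there (all genes: 44 calls). The change with genotype differed between the sexes for 1 of 29 members (all genes: 0.161%), again Pcdh11x, with 8 at an unadjusted p under 0.05 (all genes: 10.1%). When both sexes were fitted together with sex as a term, 3 of 29 members passed (all genes: 1.17%), Pcdh7, Cdh26 and Cdh13, all higher in PE-/-, and 8 had an unadjusted p under 0.05 (all genes: 12.7%). The comparisons share libraries with each other, so their results are not independent. The median log2 fold change of the tested members was 0.09 in males (all genes: 0.00) and 0.19 in females (all genes: 0.00).

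**Figure D2:**
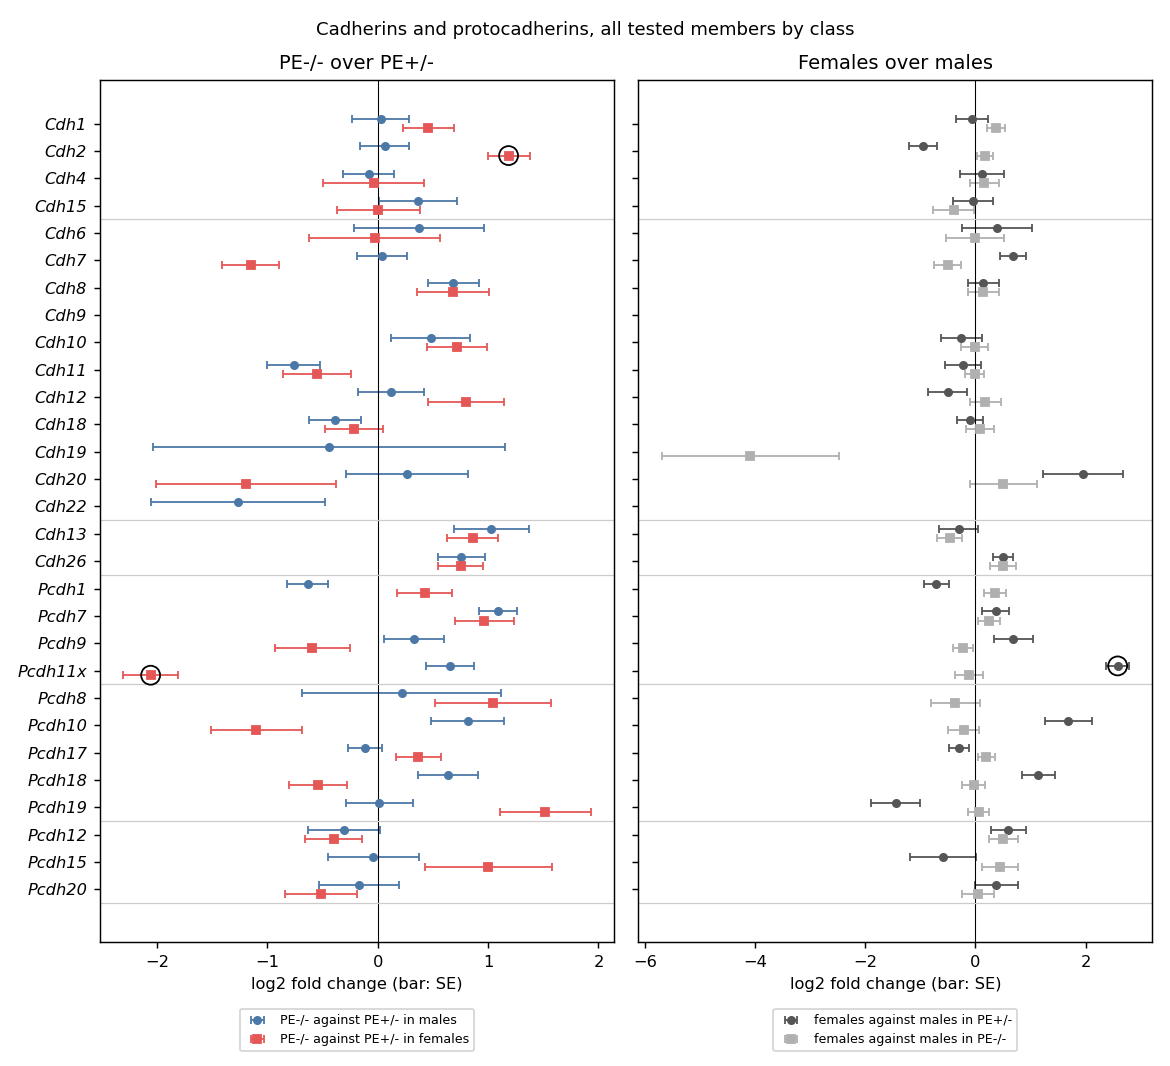
Log2 fold change of each tested member, with bars for 1 SE, for PE-/- over PE+/- in males and females (left) and for females over males in PE+/- and PE-/- (right), grouped by class. Rings mark the members past the threshold, Cdh2 and Pcdh11x on the left and Pcdh11x on the right, and Cdh9 was tested only in fits of all 15 libraries.

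Groups that did not overlap at all were counted as well. PE-/- and PE+/- males did not overlap in 4 of 28 tested members (all genes: 4.55%), with Pcdh7, Cdh26 and Cdh13 higher and Pcdh1 lower in PE-/-. In females the groups were apart in 9 of 26 (all genes: 18.6%), with Cdh2, Cdh10, Cdh13, Cdh26, Pcdh7, Pcdh8 and Pcdh19 higher and Cdh7 and Pcdh11x lower in PE-/-. Of these, Pcdh8 had 5, 5, 11 and 9 counts in PE+/- females, all under the floor, against 17, 26 and 20 in PE-/- females. It met the low-count filter only through the PE-/- females, where it was higher, and its place in the count rests on few reads. The sexes did not overlap in 3 of 25 members in PE+/- (all genes: 9.76%), Pcdh10, Pcdh11x and Pcdh1, and in 2 of 27 in PE-/- (all genes: 5.24%), Cdh1 and Cdh26.

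Pcdh11x, the X-linked delta-1 protocadherin, showed the largest fold differences among the members that passed the threshold. The annotated gene lies at chrX:120290259-120910619 on the plus strand (mm10). Its level in the 4 PE+/- females was 61.5, 87.1, 91.2 and 78.7 CPM. The 3 PE-/- females had 25.7, 17.6 and 14.4 CPM. Every PE+/- female library lay above every other library, and the PE-/- females lay within the range of the males. The PE+/- males had 14.4, 12.2, 9.93 and 16.7 CPM, and the PE-/- males 26.2, 20.01, 15.2 and 22.6 CPM, so that the male groups overlapped.

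In females the level of Pcdh11x fell with loss of the second enhancer copy by 2.06 on the log2 scale (SE 0.25, edgeR adjusted p = 0.0209), a 4.16-fold difference. The call was lost without PE+/- female replicate 2 (adjusted p = 0.0682 in edgeR), PE-/- female replicate 2 (0.0993) or PE-/- female replicate 3 (0.0901), while the log2 fold change stayed between -2.31 and -1.88. In males the log2 fold change was 0.65 (SE 0.22, edgeR adjusted p = 0.633). The genotype effect differed between the sexes by -2.71 on the log2 scale (SE 0.34, edgeR adjusted p = 0.0076), and this call was kept in all 15 fits that left out 1 library. PE+/- females exceeded PE+/- males by 2.58 on the log2 scale (SE 0.21, edgeR adjusted p = 0.0035), a 5.98-fold difference that was kept in all 8 such fits. In PE-/- the log2 difference between females and males was -0.13 (SE 0.26, edgeR adjusted p = 0.997). These 3 results rest on the same 4 PE+/- female libraries.

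Of 585 X-linked genes tested in PE+/-, 8, Pcdh11x included, were higher and 3 lower in females than in males, together 1.88% (all genes: 0.67%), and the median log2 fold change of all of them was -0.01. Pcdh19, the other X-linked member and a delta-2 protocadherin, had 0.547 to 1.90 CPM in PE+/- females against 1.83 to 4.2 CPM in PE+/- males. The log2 difference was -1.45 with overlapping groups (SE 0.44, edgeR adjusted p = 0.206). Its counts in the PE+/- females were low, at 7, 23, 35 and 19, the first of them under the floor. In PE-/- females it had 2.96, 3.49 and 3.50 CPM, all above the PE+/- females, and the log2 fold change was 1.52 (SE 0.41, edgeR adjusted p = 0.130). It was named here for its place on the X chromosome, after its values were seen.

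The summed lactotrope list separated the female groups as Pcdh11x did, and so did the gonadotrope and mesenchymal sums. The 3 lactotrope markers (Prl, Drd2 and Agtr1a), none at 0, summed to 21979 to 35148 CPM in PE+/- females. In PE-/- females they summed to 4533 to 5699 CPM. Only 1 of the 3, Prl, passed the threshold as lower. Since this sum weights each marker by its level, it can follow its most abundant gene alone. The same sum was 12443 to 31267 CPM in PE+/- males, which overlapped with the PE+/- females, and 4828 to 41311 CPM in PE-/- males. For Pcdh11x the PE+/- males and PE+/- females were apart. The part of lactotropes in the Pcdh11x difference was not tested.

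**Figure D3:**
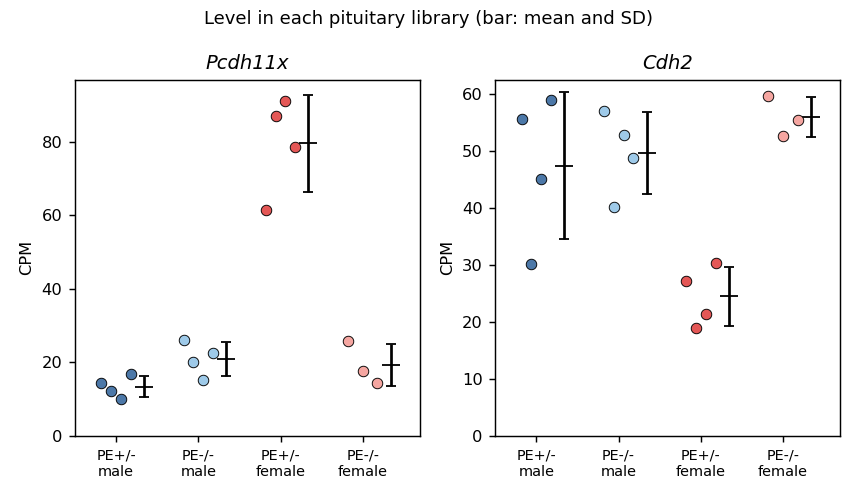
Levels of Pcdh11x (left) and Cdh2 (right) in CPM, with 1 point per library and a bar for the mean and SD of each group. PE+/- females lie at 61.5 to 91.2 CPM for Pcdh11x, above every other library, and have a mean of 24.4 CPM for Cdh2, the lowest of the 4 groups.

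Cdh2, N-cadherin, showed the opposite arrangement. The gene lies at chr18:16588877-16809246 on the minus strand (mm10). PE+/- females had 27.1, 18.9, 21.4 and 30.4 CPM, and PE-/- females 59.6, 52.6 and 55.4 CPM. The female groups were apart, with PE+/- females low. PE+/- males had 55.5, 30.0, 45.1 and 58.9 CPM and PE-/- males 56.9, 40.1, 52.7 and 48.7 CPM, which overlapped each other. Only the lowest PE+/- male library, replicate 2, fell within the range of the PE+/- females.

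Cdh2 rose in PE-/- females by 1.19 on the log2 scale (SE 0.19, edgeR adjusted p = 0.0429), a 2.27-fold difference near the threshold. The call was lost in all 7 fits that left out 1 library, in which the log2 fold change was 1.08 to 1.29 and the edgeR adjusted p 0.0534 to 0.170, and without the filter on low counts (adjusted p = 0.0514). In males the log2 fold change was 0.06 (SE 0.22, edgeR adjusted p = 0.989). The difference of the genotype effects between the sexes was 1.13 (SE 0.31, edgeR adjusted p = 0.190), so that the effect in females was not shown to differ from that in males. Between PE+/- females and PE+/- males the log2 difference was -0.95 (SE 0.25, edgeR adjusted p = 0.146).

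The other type I cadherins gave no call. Cdh1, E-cadherin, had means of 16.9 ± 6.36 CPM (SD, n = 4) in PE+/- males, 17.3 ± 1.86 (n = 4) in PE-/- males, 16.2 ± 3.92 (n = 4) in PE+/- females and 22.4 ± 4.37 (n = 3) in PE-/- females. In PE-/- the sexes did not overlap for it, at 19.5 to 27.4 CPM in females and 15.3 to 19.0 CPM in males, with a log2 difference of 0.38 (SE 0.17, edgeR adjusted p = 0.997). Cdh4, R-cadherin, ranged from 4.89 to 17.9 CPM and Cdh15, M-cadherin, from 1.09 to 3.37 CPM over all libraries.

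Pcdh7, Cdh26 and Cdh13 were higher in PE-/- than in PE+/- libraries of the same sex, without overlap in males or in females. Pcdh7 is a delta-1 protocadherin at chr5:57717967-58133230 on the plus strand, Cdh26 an epithelial cadherin known to bind integrins at chr2:178430531-178487366 on the plus strand, and Cdh13, T-cadherin, at chr8:118283733-119324921 on the plus strand, is attached to the membrane by a lipid anchor with no cytoplasmic part and binds adiponectin. The promoter windows of Pcdh7 and Cdh26 are shown because these genes moved together with genotype. Each holds 250 bases before and 50 after the start site of 1 RefSeq transcript on GRCm38.p6, written 5′ to 3′ on the plus strand, with capitals for the 1 match to the motifs searched.
Pcdh7, chr5:57717831-57718130: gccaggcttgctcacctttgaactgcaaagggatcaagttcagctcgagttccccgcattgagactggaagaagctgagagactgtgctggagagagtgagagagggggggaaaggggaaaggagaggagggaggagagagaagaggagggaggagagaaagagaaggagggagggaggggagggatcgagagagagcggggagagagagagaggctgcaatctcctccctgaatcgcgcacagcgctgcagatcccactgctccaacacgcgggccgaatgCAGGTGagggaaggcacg
Cdh26, chr2:178430265-178430564: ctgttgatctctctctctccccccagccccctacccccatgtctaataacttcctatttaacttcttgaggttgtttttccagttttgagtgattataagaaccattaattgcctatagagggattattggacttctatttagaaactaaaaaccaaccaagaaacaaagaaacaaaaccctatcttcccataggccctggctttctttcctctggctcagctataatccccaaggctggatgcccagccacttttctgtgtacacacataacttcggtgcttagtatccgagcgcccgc

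The motifs searched, on both strands, were AAGGTCA, the half-site bound by NR5A1 and its relatives, and CACCTG, the E-box bound by the Snail and Zeb repressors of cadherin genes. RefSeq windows were held for 22 of the 34 members. AAGGTCA was in a window of 5.38% of all 27025 genes that had one and of 1 of the 22 members, Cdh18, so neither sequence above holds it. CACCTG was in a window of 22.6% of these genes and of 3 of the 22 members, Cdh7, Pcdh15 and Pcdh7, in the last on the minus strand (CAGGTG on the plus strand as printed) 33 bases after the start site. Windows of Cdh1, Cdh2, Cdh13, Pcdh1 and Pcdh11x were among the 12 not held.

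Pcdh7 had 8.17, 7.28, 7.80 and 6.78 CPM in PE+/- males, compared with 19.6, 14.7, 17 and 12.5 CPM in PE-/- males. In females it had 10.9, 5.77, 10.01 and 11.9 CPM in PE+/- and 19.1, 21.9 and 15.7 CPM in PE-/-. All 7 PE-/- libraries were above all 8 PE+/- libraries. With sex as a term, PE-/- exceeded PE+/- by 1.03 on the log2 scale (SE 0.15, edgeR adjusted p = 0.0051), a 2.05-fold rise, and the call was kept in all 15 fits that left out 1 library. Within each sex the change was of like size but missed the threshold, at 1.09 in males (SE 0.17, edgeR adjusted p = 0.0923) and 0.96 in females (SE 0.27, edgeR adjusted p = 0.137). Exons of Pcdh7 overlap by 2235 bp with 4932441J04Rik on the opposite strand. Whether the deposited counts used strand was not stated, so reads of this pair cannot be told apart. The level listed for 4932441J04Rik was 0.234 to 3.41 CPM, and the sum of both genes was 8.03 to 15.2 CPM in PE+/- and 15.9 to 22.7 CPM in PE-/- libraries, which remained apart.

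Cdh26 had 14.0, 12.7, 11 and 12.2 CPM in PE+/- males, compared with 26.9, 25.2, 18.2 and 14.2 CPM in PE-/- males. PE+/- females had 19.8, 15.7, 13.4 and 21.5 CPM and PE-/- females 27.3, 34.1 and 28.0 CPM. Within each sex the genotypes were apart, narrowly so in males, and the females were the higher sex in PE-/- without overlap. Its log2 fold change with sex as a term was 0.76 (SE 0.15, edgeR adjusted p = 0.0212), a 1.69-fold rise. This call was lost without PE-/- male replicate 1 (edgeR adjusted p = 0.0565), PE-/- female replicate 2 (0.0784) or PE-/- female replicate 3 (0.0614). The log2 fold changes within the sexes were 0.76 in males (SE 0.22, edgeR adjusted p = 0.469) and 0.75 in females (SE 0.20, edgeR adjusted p = 0.132), and their difference was 0.00 (SE 0.33).

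Cdh13 had 7.25, 9.04, 3.05 and 8.53 CPM in PE+/- males, compared with 15.4, 9.53, 17.5 and 14.6 CPM in PE-/- males. In females it had 5.54, 4.56, 7.72 and 4.63 CPM in PE+/- and 10.9, 10.5 and 9.45 CPM in PE-/-. The highest PE+/- library of either sex lay below the lowest PE-/- library, by less than 1 CPM in males. With sex as a term the log2 fold change was 0.96 (SE 0.21, edgeR adjusted p = 0.0459), a 1.94-fold rise at the edge of the threshold. The call was lost in 11 of 15 fits that left out 1 library, with an edgeR adjusted p of up to 0.118, and without the filter on low counts (adjusted p = 0.0577). It was kept only without PE+/- male replicate 2 or 3, PE-/- male replicate 2 or PE+/- female replicate 3.

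**Figure D4:**
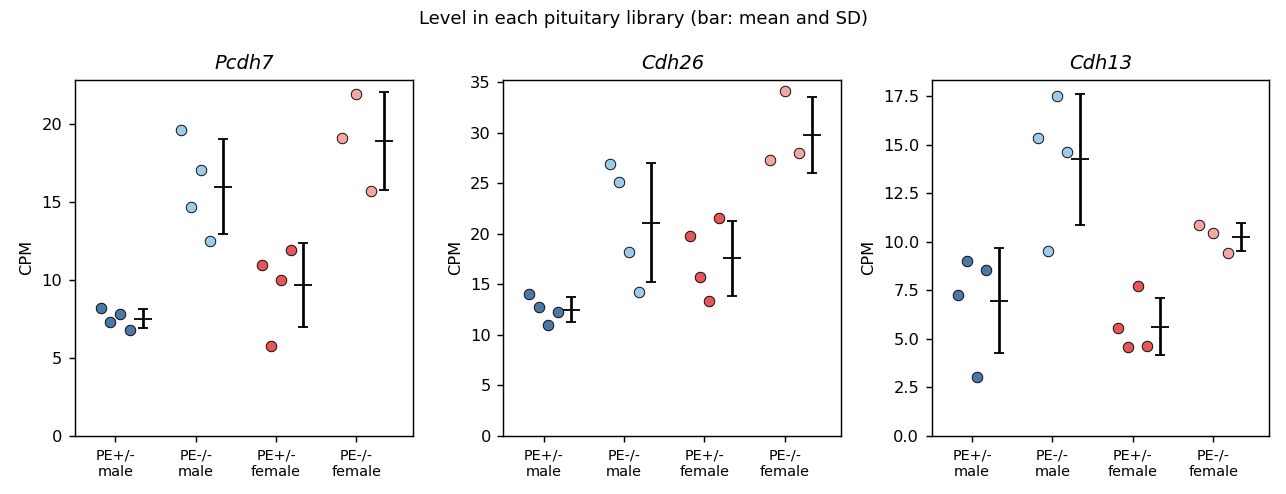
Levels of Pcdh7, Cdh26 and Cdh13 in CPM, with 1 point per library and a bar for the mean and SD of each group. In each panel the PE-/- points of a sex lie above all PE+/- points of that sex, for Pcdh7 with means of 16.0 against 7.51 CPM in males and 18.9 against 9.65 CPM in females.

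Among the type II cadherins, known mostly from the nervous system and from mesenchyme, 0 members passed the threshold in any comparison in edgeR. Cdh7 had 22.4, 23.5, 13.9 and 23.7 CPM in PE+/- females and 7.84, 8.56 and 12 CPM in PE-/- females. The female groups were apart, with replicate 3 of the PE+/- females closest to PE-/-, and the log2 fold change was -1.15 (SE 0.26, edgeR adjusted p = 0.0894). In males Cdh7 was 10.5 to 17 CPM in PE+/- and 9.97 to 16.4 CPM in PE-/-, and the log2 fold change was 0.04 (SE 0.23, edgeR adjusted p = 0.993). The genotype effects of the sexes differed by -1.19 on the log2 scale (SE 0.35, edgeR adjusted p = 0.224). DESeq2 called Cdh7 as lower in PE-/- females.

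Cdh11 is typical of mesenchymal cells. With sex as a term its log2 fold change was -0.66 (SE 0.20, edgeR adjusted p = 0.137). Males had means of 22.3 ± 7.28 CPM (SD, n = 4) in PE+/- and 13.2 ± 0.814 (n = 4) in PE-/-. Females had means of 19.0 ± 7.31 (n = 4) in PE+/- and 13 ± 2.75 (n = 3) in PE-/-. The genotypes overlapped in both sexes, and the PE+/- females had 14.8, 17.4, 29.7 and 14.1 CPM. The 7 mesenchymal or pericyte markers, none at 0, summed to 690 to 806 CPM in PE+/- and 430 to 585 CPM in PE-/- males, and to 727 to 1217 CPM in PE+/- and 466 to 568 CPM in PE-/- females, with 0 of 7 past the threshold in males and 1 of 7, Col1a2, in females. Their part in the Cdh11 values was not tested. Cdh8 and Cdh10, neural type II cadherins, had log2 fold changes in the other direction, of 0.69 (SE 0.19, edgeR adjusted p = 0.111) and 0.60 (SE 0.23, edgeR adjusted p = 0.284) with sex as a term. Cdh8, Cdh10 and Cdh11 were named after their values were seen.

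Cdh19, a cadherin of Schwann cells and other glia, varied by library rather than by group. PE+/- males had 0, 6.40, 0 and 13.9 CPM, and PE-/- males 0.303, 0.191, 7.91 and 6.65 CPM. PE+/- females had 1.41, 0.544, 0.272 and 0 CPM, and PE-/- females 0.123, 0.463 and 0 CPM. Only 4 libraries, all male, exceeded 5 CPM. The same 4 held the highest levels of Fgf10, a growth factor gene of the posterior lobe, at 43.2, 95.9, 69.0 and 41.2 CPM, where the other 11 libraries had 18.4 CPM or less, and were the only ones in which Oxt, the oxytocin gene of the hypothalamic axons that end there, was above 0 (3.06, 7.95, 19.8 and 4.72 CPM). The 6 posterior lobe markers summed to 25.6 to 269 CPM in PE+/- and 35.5 to 185 CPM in PE-/- males, and to 28.9 to 58.0 CPM in PE+/- and 29.0 to 40.6 CPM in PE-/- females, with Lhx2 at 0 in all PE+/- and Nkx2-1 at 0 in all PE-/- females. In PE-/- the sexes overlapped for Cdh19, with 2 of 3 female libraries under the floor, and no difference was called (edgeR adjusted p = 0.997). In none of the 4 libraries was the part of the posterior lobe tested.

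**Figure D5:**
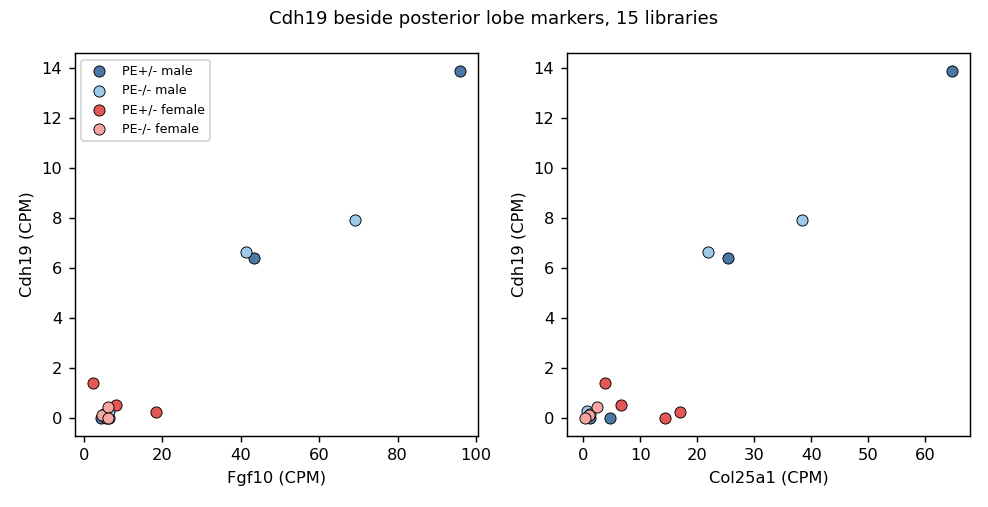
Level of Cdh19 against those of the posterior lobe markers Fgf10 (left) and Col25a1 (right), all in CPM, with 1 point per library coloured by group. The 4 libraries with 6.40 CPM or more of Cdh19, 2 PE+/- and 2 PE-/- males, lie apart with 41.2 CPM or more of Fgf10 and 21.9 CPM or more of Col25a1.

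Cdh22, first described as a cadherin of pituitary and brain, was near the detection limit. It had 3.66, 1.16, 0.305 and 2.26 CPM in PE+/- males, compared with 0.354, 0.306, 1.54 and 0.853 CPM in PE-/- males, a log2 fold change of -1.26 with overlapping groups (SE 0.79, edgeR adjusted p = 0.942). It was listed at 0 in all PE+/- females and in 2 of 3 PE-/- females, at 0.154 CPM in the other. In 10 of 15 libraries it was at or under the floor, so that no fold was given for females.

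Among the remaining delta protocadherins, Pcdh1 had log2 fold changes of opposite sign in the sexes. It had 34.9, 23.5, 24.0 and 21.3 CPM in PE+/- males, compared with 16.7, 15.2, 19.8 and 15.2 CPM in PE-/- males, without overlap, and its log2 fold change was -0.63 (SE 0.19, edgeR adjusted p = 0.516). In females it had 19.3, 12.4, 13 and 18.5 CPM in PE+/- and 27.8, 19.1 and 17.2 CPM in PE-/-, with overlap, and its log2 fold change was 0.43 (SE 0.25, edgeR adjusted p = 0.469). The genotype effects differed by 1.07 on the log2 scale (SE 0.31, edgeR adjusted p = 0.224). PE+/- females had less Pcdh1 than PE+/- males without overlap, with a log2 difference of -0.71 (SE 0.23, edgeR adjusted p = 0.226). No difference of Pcdh1 passed the threshold.

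Pcdh10, a delta-2 protocadherin that binds the WAVE actin regulators, was highest in PE+/- females, as Pcdh11x was. It had 4.37, 8.12, 5.22 and 13.2 CPM there, against 4.44, 3.24 and 3.19 CPM in PE-/- females. PE+/- males had 3.38, 2.5, 2.38 and 1.29 CPM, and PE-/- males 5.66, 4.28, 2.86 and 4.04 CPM. The PE+/- sexes were apart, while PE+/- females overlapped with both PE-/- groups. The log2 difference between PE+/- females and males was 1.69 (SE 0.42, edgeR adjusted p = 0.129), that between the genotypes in females -1.10 (SE 0.41, edgeR adjusted p = 0.245), and the genotype effects of the sexes differed by -1.91 (SE 0.54, edgeR adjusted p = 0.201). Pcdh18, of the same class, had means of 8.46 ± 3.40 CPM (SD, n = 4) in PE+/- and 13.2 ± 2.21 (n = 4) in PE-/- males, and of 18.6 ± 4.79 (n = 4) in PE+/- and 12.8 ± 3.24 (n = 3) in PE-/- females. Its log2 difference between the PE+/- sexes was 1.14 (SE 0.30, edgeR adjusted p = 0.146), and the genotype effects differed by -1.17 (SE 0.39, edgeR adjusted p = 0.307).

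Among the 8 members with the highest levels, the median coefficient of variation within groups, which leaves out differences between groups, was lowest for Pcdh17 (14.2%) and highest for Pcdh20 (33.3%). Pcdh17, a delta-2 protocadherin, varied by 13.5 to 21.6% within groups and had means of 55.6 ± 7.94 CPM (SD, n = 4) in PE+/- and 51.3 ± 6.95 (n = 4) in PE-/- males and 45.2 ± 9.76 (n = 4) and 58.6 ± 8.33 (n = 3) in PE+/- and PE-/- females. Its log2 fold change was -0.12 in males (SE 0.15) and 0.37 in females (SE 0.20), with edgeR adjusted p-values of 0.983 and 0.432. Pcdh20, a protocadherin outside the delta classes, varied by 22.6 to 49.0% within groups and ran from 17.7 to 59.1 CPM over all libraries. Its log2 fold changes were -0.17 in males (SE 0.36) and -0.51 in females (SE 0.33), with edgeR adjusted p-values of 0.988 and 0.514. Pcdh9, a delta-1 protocadherin, ran from 14.1 to 52.7 CPM, and its log2 fold change was 0.33 in males (SE 0.27) and -0.59 in females (SE 0.34), with edgeR adjusted p-values of 0.972 and 0.455.

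The genes through which cadherins act gave no call. Of 39 catenins and linkers, large cadherin relatives, and processing enzymes and repressors, 31 or 32 were tested in each comparison and 0 passed the threshold in edgeR in any. Ctnna1, alpha-catenin, was at 192 to 274 CPM in all 15 libraries, with a log2 fold change of 0.05 with sex as a term (SE 0.10, edgeR adjusted p = 0.927). Ctnnb1, beta-catenin, which couples classical cadherins to alpha-catenin and also carries Wnt signals, ranged from 33.3 to 195 CPM and varied widely within PE+/- females, at 34.7, 114, 39.2 and 140 CPM. It was at 33.3, 42.0 and 37.8 CPM in PE-/- females, and its log2 fold change with sex as a term was -0.89 (SE 0.36, edgeR adjusted p = 0.299). Ctnnd1, p120-catenin, which keeps cadherins at the cell surface, ran from 14.4 to 99.3 CPM, and the log2 fold change was 0.22 (SE 0.27, edgeR adjusted p = 0.840).

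In females, 9 of the 32 tested (28.1%; all genes: 16.1%) had an unadjusted p under 0.05, of which 6 (Cdhr1, Celsr1, Dsc3, Fat1, Fat3 and Fat4) had higher and 3 (Dsc2, Snai2 and Vcl) lower levels in PE-/-. In males there was 1 of 32 (3.12%; all genes: 6.14%), Snai2, which was lower in PE-/-. Of the 9 in females 7 were among the 15 tested large cadherin relatives, whose median log2 fold change was 0.71 (all genes: 0.00). Fat1, an atypical giant cadherin, came closest to the threshold, with 24.5, 23.2, 19.4 and 23.6 CPM in PE+/- and 43.2, 47.8 and 36.2 CPM in PE-/- females, apart from each other, and the log2 fold change was 0.90 (SE 0.16, edgeR adjusted p = 0.0560). In males its log2 fold change was 0.29 (SE 0.24, edgeR adjusted p = 0.972) with overlapping groups. The genes of these lists other than the catenins were named after their values were seen.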

How the data were processed

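Total RNA of whole pituitaries was made into libraries with a low-input kit and sequenced in paired reads. Trimming by cutadapt, alignment to mm10 by STAR and default featureCounts counting are the steps that the methods describe. What the authors deposited are estimated counts in whole numbers, one per gene and library and without normalization, and their gene names are those of a transcript assembly that the methods leave out. About 4 counts stand for 1 fragment, because 5 occurs 1.52 times as often as the values next to it, 9 occurs 1.16 times as often and 13 occurs 1.08 times as often. The floor of 12 counts covers counting error only, since reads had no molecular identifiers. Among the 34 members 27 were named by assembled locus and 7 by Ensembl gene. Each symbol had 1 row, and 0 columns were unmatched. Exon lengths and positions came from GENCODE M21, and promoter windows from RefSeq.

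Comparisons used R 4.3.3 and edgeR 4.0.16: filterByExpr (minimum count 10, minimum total 15), TMM scaling and the two-sided quasi-likelihood F test on the groups compared, or on all 15 libraries for the interaction and the fit with sex as a term, with Benjamini-Hochberg adjustment over all genes tested. Dividing a log2 fold change by the root of its F gave its SE. The common biological coefficient of variation was 41.3 to 47.7%. All pairs of replicates differed by more than counting noise. Scripts were tested on simulated data with less spread between libraries and larger changes than most found here. This checked the code and not the power of the tests in these data.

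Members, lists and the naming rule were chosen with earlier results of these data known. The rule named members past the threshold, the 3 with the smallest p in each comparison, the 8 with the highest level per kilobase, Cdh2 and Cdh22, and always Ctnnb1, Ctnna1 and Ctnnd1. Alternatives were DESeq2 1.42.0, DESeq2-type size factors, no low-count filter, 1 fit on all 15 libraries, a replicate block, counts divided by 4, and leaving out each library in turn. Marker lists covered gonadotropes, somatotropes, lactotropes, corticotropes, melanotropes, thyrotropes, stem or folliculostellate, posterior lobe, hypothalamic neuron, endothelial, mesenchymal or pericyte, immune and erythroid cells. From the lists of catenins, relatives, enzymes and repressors 1 gene is not reported here, and their counts leave it out. Protein sequences were not used here.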

Additional observations from a re-analysis of the deposited data

Results flagged for a closer look

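The genotype effect on Pcdh11x differed between the sexes by -2.71 on the log2 scale (edgeR adjusted p = 0.0076), the only member past the threshold of the interaction test in edgeR. Its level was lower in all 3 PE-/- females than in all 4 PE+/- females, while the male groups overlapped.

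A single library stood far from the rest of its group in 2 of 44 groups of 4 libraries examined by Dixon's test, a test that flags about 1 in 20 groups by chance. Cdh7 was at 13.9 CPM in replicate 3 of the PE+/- females, where the other 3 libraries had 22.4 to 23.7 CPM. Pcdh18 was at 13.6 CPM in replicate 4 of the PE+/- males, where the other 3 had 6.64 to 6.83 CPM. This library also held the highest Fgf10 level of all 15. Of the other libraries with posterior lobe transcripts, replicate 2 of the PE+/- males had 6.81 CPM of Pcdh18. Replicates 3 and 4 of the PE-/- males had 10.8 and 16.1 CPM. The part of the posterior lobe in the Pcdh18 values was not tested.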

How the results depend on the processing

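The number of members past the threshold depended on the tool and on single libraries. Against 0 members in males, 2 in females, 1 between the sexes in PE+/-, 1 in the interaction and 3 with sex as a term, DESeq2 called 1, 7, 5, 3 and 5, and 0 in PE-/- between the sexes. Over all genes, edgeR called 23, 189, 115, 31 and 226 in these comparisons, and 9 in PE-/- between the sexes. DESeq2 called 228, 1304, 852, 370 and 742, and 44, so its calls rose across all genes and not only among members. It was given all genes with counts above 0 and not the filtered genes of edgeR. The counts of these tools are therefore not shares of the same set of genes. A single edgeR fit of all 15 libraries called 5 members in females (all genes: 714 calls) and 6 between the sexes in PE+/- (all genes: 421). Without the low-count filter 1 member passed in females (all genes: 123 calls). When each library was left out in turn, the count was 0 to 1 in females (all genes: 29 to 244 calls). With sex as a term it was 1 to 3 (all genes: 75 to 267 calls). It was 0 in all fits of males and of the PE-/- sexes, and 1 in all fits of the PE+/- sexes and of the interaction. With the replicate number as a block, 0 passed in females (all genes: 1 call) and 1 with sex as a term (all genes: 88 calls). Between the sexes in PE+/- this setting called 0 members and 0 of all genes. No label ties same-numbered libraries, and their deviations from group means correlated by -0.081 to 0.132. Libraries of different number were not compared, so these values cannot decide whether the numbers pair the libraries. DESeq2-type size factors and counts divided by 4 kept every count within 1.5 times. In all, 73 of 94 recomputed counts stayed so and 21 moved. Of 278 recomputed log2 fold changes of single members 238 kept their side of the threshold, 31 lost and 9 gained the call, and 0 changed sign. The cause of these differences was not tested. Adjusted p-values near the threshold, as for Cdh2 and Cdh13, are limited by 3 or 4 libraries a group, and members at or under 12 counts by depth.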
